A study of Homo sapiens with 27 samples.

Results

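Peaks of acetylated H2A.Z (acH2A.Z) were set against peaks of all H2A.Z in HL-60 cells labelled siNTC, the siRNA control of the siMyc cells, and every deposited peak on chromosomes 1 to 22 was taken from both lists. The acH2A.Z list held 16908 such peaks of 17353 deposited, and the H2A.Z list held 6890 of 6956. Together these were 23798 of the 764377 peaks in the 13 peak lists of the series. HL-60 is an established human promyelocytic leukaemia line with MYC amplified, and the series comprised 27 libraries, 1 per group. For each ChIP, formaldehyde-fixed and sonicated chromatin was precipitated with an antibody to acH2A.Z or with an antibody to H2A.Z whatever its acetylation. There was 1 library for each antibody, so no replicate spread was measured, no test was made, and each difference compares 2 libraries. The siNTC cells carried no DRB or ActD treatment in their labels, and RNA was measured in untreated cells and not in siNTC cells.

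H2A.Z is a variant of the core histone H2A that the SRCAP and p400/TIP60 remodelling complexes place in nucleosomes, often beside the start of a gene. Acetylation of its amino-terminal tail, for which the acetyltransferase Tip60 is known, goes with open and active promoters, while H2A.Z without it is also found at silent genes and enhancers. The total H2A.Z antibody should see both forms, so each acetylated region is also a region of H2A.Z, although the antibodies can differ in how well they precipitate.

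The promoters below are shown because they carry the most tags of their class among protein-coding genes with a name other than a LOC number. The classes were both marks, acH2A.Z alone or H2A.Z alone within 1000 bp of the gene start. Genes with both marks were ranked by their H2A.Z tags and not by acH2A.Z. Each sequence is the 250 bases before the start in RefSeq's GRCh38.p14, read 5′ to 3′ along the gene. Every CG is in capitals because the classes as a whole differed in their CG content, a difference that these few promoters do not show. With both marks, ZNF236 (chr18:76822307-76822556, plus strand, 51 CG, 85.6% G or C) had 2114.1 acH2A.Z and 591.8 H2A.Z tags. ZBTB14 (chr18:5295727-5295976, minus strand, 27 CG, 73.2%) had 2509.5 acH2A.Z and 578.3 H2A.Z tags. Both encode zinc finger proteins, and both lie on chromosome 18.
ZNF236: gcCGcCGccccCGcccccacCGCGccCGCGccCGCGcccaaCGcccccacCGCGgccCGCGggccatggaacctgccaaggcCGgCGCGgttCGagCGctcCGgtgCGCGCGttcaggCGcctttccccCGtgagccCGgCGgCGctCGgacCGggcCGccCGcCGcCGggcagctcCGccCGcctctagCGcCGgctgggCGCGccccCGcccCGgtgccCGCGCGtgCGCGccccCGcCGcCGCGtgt
ZBTB14: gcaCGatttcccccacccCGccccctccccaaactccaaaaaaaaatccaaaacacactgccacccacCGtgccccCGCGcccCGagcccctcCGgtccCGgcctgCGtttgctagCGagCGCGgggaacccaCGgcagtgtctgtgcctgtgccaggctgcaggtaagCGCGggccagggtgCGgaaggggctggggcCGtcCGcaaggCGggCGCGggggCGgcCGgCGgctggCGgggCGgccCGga

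With acH2A.Z alone, ATP9B (chr18:79069144-79069393, plus strand, 31 CG, 71.6%) had 2333.9 tags, and FOXO3, a forkhead transcription factor (chr6:108559575-108559824, plus strand, 42 CG, 80.4%), had 2246 tags. Neither had a listed H2A.Z peak, although both were as strong in acH2A.Z and as rich in CG as the pair above.
ATP9B: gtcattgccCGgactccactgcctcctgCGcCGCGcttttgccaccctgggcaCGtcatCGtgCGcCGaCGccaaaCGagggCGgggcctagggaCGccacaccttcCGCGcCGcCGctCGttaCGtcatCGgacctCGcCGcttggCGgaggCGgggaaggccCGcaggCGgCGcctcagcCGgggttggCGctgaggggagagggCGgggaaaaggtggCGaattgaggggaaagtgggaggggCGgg
FOXO3: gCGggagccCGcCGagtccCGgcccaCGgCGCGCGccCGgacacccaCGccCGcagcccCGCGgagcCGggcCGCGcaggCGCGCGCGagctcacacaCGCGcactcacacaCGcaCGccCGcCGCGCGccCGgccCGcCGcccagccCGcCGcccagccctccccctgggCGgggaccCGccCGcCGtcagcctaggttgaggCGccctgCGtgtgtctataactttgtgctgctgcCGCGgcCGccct

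With H2A.Z alone, PGBD5, a gene derived from a piggyBac transposase (chr1:230426333-230426582, minus strand, 38 CG, 83.6%), had 122.8 H2A.Z tags. TRAF3IP1, an intraflagellar transport gene (chr2:238320268-238320517, plus strand, 35 CG, 77.6%), had 108 tags. CNR1, the cannabinoid receptor (chr6:88166348-88166597, minus strand, 22 CG, 68.4%), had 13.9 H2A.Z tags and is added as the strongest of the class with a nascent RNA value of 0 TPM.
PGBD5: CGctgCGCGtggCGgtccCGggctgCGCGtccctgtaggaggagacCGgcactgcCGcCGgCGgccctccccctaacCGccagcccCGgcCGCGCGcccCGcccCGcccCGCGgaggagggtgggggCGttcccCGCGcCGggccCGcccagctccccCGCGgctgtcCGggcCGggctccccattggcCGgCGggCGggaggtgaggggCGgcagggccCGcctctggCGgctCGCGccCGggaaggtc
TRAF3IP1: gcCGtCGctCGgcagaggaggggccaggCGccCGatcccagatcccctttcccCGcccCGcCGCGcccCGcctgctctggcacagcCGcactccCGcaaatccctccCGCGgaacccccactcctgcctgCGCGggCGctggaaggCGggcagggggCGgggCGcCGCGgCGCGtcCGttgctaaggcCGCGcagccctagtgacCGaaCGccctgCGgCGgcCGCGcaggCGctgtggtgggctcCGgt
CNR1: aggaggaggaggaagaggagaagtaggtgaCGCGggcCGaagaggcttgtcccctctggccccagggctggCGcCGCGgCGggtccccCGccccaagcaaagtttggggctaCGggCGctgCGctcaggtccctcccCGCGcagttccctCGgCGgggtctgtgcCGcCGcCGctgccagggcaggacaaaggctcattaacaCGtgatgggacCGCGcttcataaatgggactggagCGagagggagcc

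The acetylated mark covered many more places than the H2A.Z list, and most peaks of either list stood without the other. At an overlap of at least 1 bp, 2081 acH2A.Z peaks (12.3%, exact binomial 95% interval 11.8 to 12.8) met an H2A.Z peak, and 2129 H2A.Z peaks (30.9%, 29.8 to 32.0) met an acH2A.Z peak. They formed 2129 pairs, of which 2033 joined 1 peak of each list, while 48 acH2A.Z peaks held 2 H2A.Z peaks each. The H2A.Z peak lay wholly inside its acH2A.Z partner in 77.1% of pairs, and the peak centres were a median of 269.5 bp apart. The peaks that overlapped held 24.4% of the acH2A.Z tags in peaks and 75.2% of the H2A.Z tags in peaks. The overlap depended on which peaks were kept. With a fold over control of at least 8, 2.35% of acH2A.Z and 7.16% of H2A.Z peaks overlapped. With peaks wider than 500 bp, a setting chosen after seeing the data, 7.82% and 65.1% did. Each list holds only peaks that passed the authors' limits of at least 4-fold over a control and a p-value of at most 0.0001, so a place without a listed peak is not a place shown to lack the mark.

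Overlap was most frequent among the peaks with the most tags. The normalized tag count is the authors' signal per peak, taken here as tags per 10000000 in the library. In the highest decile of H2A.Z peaks, from 93.3 to 1619.6 tags, 686 of 689 (99.6%) overlapped acH2A.Z, and in the ninth decile, from 15.8 to 93.1 tags, 68.8% did. In the lowest decile, from 6.08 to 8.68 tags, the share was 15.8%. For acH2A.Z, the share overlapping H2A.Z was 35.8% in the highest decile, from 630.4 tags upwards, and 1.60% in the lowest, up to 7.77 tags. Thus an H2A.Z peak with many tags nearly always lay in acH2A.Z, whereas most of the acH2A.Z peaks with the most tags had no listed H2A.Z peak. Strength here is the tag count and not the fold over control. The median fold was 4.34 in the highest decile of H2A.Z peaks and 8.34 in the lowest. For acH2A.Z it was 12.76 in the highest decile and 6.03 in the lowest. Peaks with more tags were also wider. From the lowest to the highest decile the median width rose from 500 to 2250 bp for acH2A.Z and from 500 to 876 bp for H2A.Z. The part of width in the overlap was not tested.

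**Figure D1:**
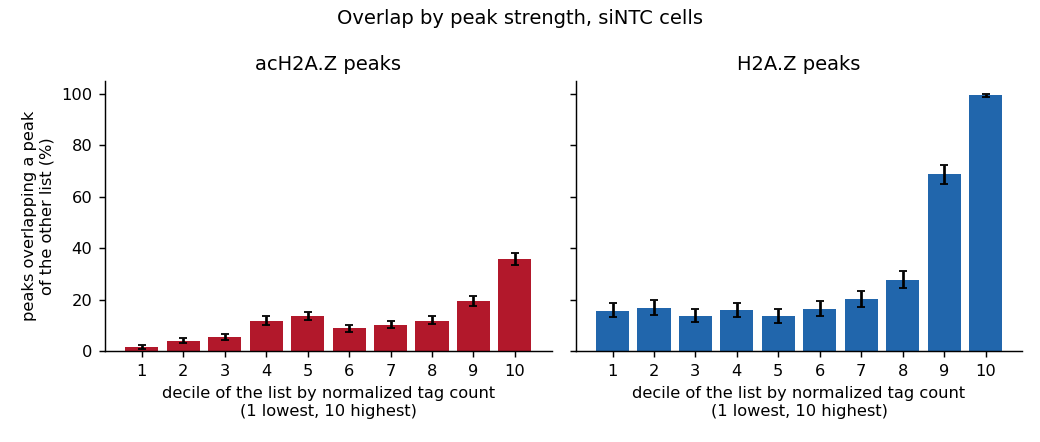
Share of peaks that overlap a peak of the other list (y axis, percent) in each decile of a list ordered by normalized tag count (x axis), for acH2A.Z (left) and H2A.Z (right). Bars are shares of the peaks in that decile and lines exact binomial 95% intervals. The H2A.Z share stands at 99.6% in the highest decile, and the acH2A.Z share at 35.8%.

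The H2A.Z list fell into 2 ranges of tag count with few peaks between them: 5743 peaks had fewer than 20 tags, 229 had 20 to 50, and 918 had 50 or more. A line at 30 tags, chosen after seeing this distribution, left 1000 peaks at or above it and 5890 below. Above the line 987 peaks (98.7%, 97.8 to 99.3) overlapped acH2A.Z and 13 did not. Below it 1142 (19.4%, 18.4 to 20.4) overlapped and 4748 did not. The strong shared H2A.Z peaks had a median width of 758 bp, and 81.3% reached within 1000 bp of a gene start. The weak shared ones had a median width of 500 bp, which is the narrowest width in the lists, and 50.9% reached a start.

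The control signal also differed between these ranges. Under strong shared H2A.Z peaks the control library had a median of 36.9 tags, against 2.4 under weak shared ones. In addition 855 of the 987 strong shared peaks (86.6%) had a fold over control of 4 to 5, just past the limit of the list, with a median of 4.32. In the weak shared peaks the median fold was 5.86 (29.9% under 5). How many further strong H2A.Z regions lay just under 4-fold was not tested, since the lists do not hold them. These folds are the authors' own values for each peak, and the sources used here do not name the library that served as control.

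At shared peaks the acH2A.Z tag count was nearly always the higher of the pair. The median log2 ratio of acH2A.Z over H2A.Z tags was 2.39 (order-statistic 95% interval over pairs 2.34 to 2.46), or 5.24-fold, with the middle 80% of pairs between 0.95 and 5.14. In 1904 of 2129 pairs (89.4%) acH2A.Z was at least 2-fold higher, in 8 pairs (0.376%) at least 2-fold lower, and in 91 pairs the ratio was below 0. The marks also differed in width, since the acH2A.Z peak was a median of 2.79 times as wide as its partner. Per kb of peak, the median log2 ratio was 0.94, or 1.92-fold. The size of the ratio also rests on the antibodies and on the assumed scale of the tags, so it is not a share of H2A.Z that is acetylated.

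Tag counts in the 2 ranges are given apart, since a pooled correlation would span both. In the 962 pairs with at least 30 H2A.Z tags, acH2A.Z was higher where H2A.Z was higher: the medians were 643.3 acH2A.Z and 126.2 H2A.Z tags, the median log2 ratio was 2.24 (2.18 to 2.29), and the Spearman correlation of the tag counts was 0.675. In the 1071 pairs below 30, H2A.Z had a median of 11 tags, in a range bounded by the line and the lowest listed peaks, the middle 80% of acH2A.Z values ran from 13.7 to 575.5 tags, and the correlation was 0.148, over an H2A.Z range that the line itself made narrow. These correlations are over peaks of the same pair of libraries and describe them. Only 2 of the strong pairs had a ratio below 0, against 89 of the weak pairs.

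**Figure D2:**
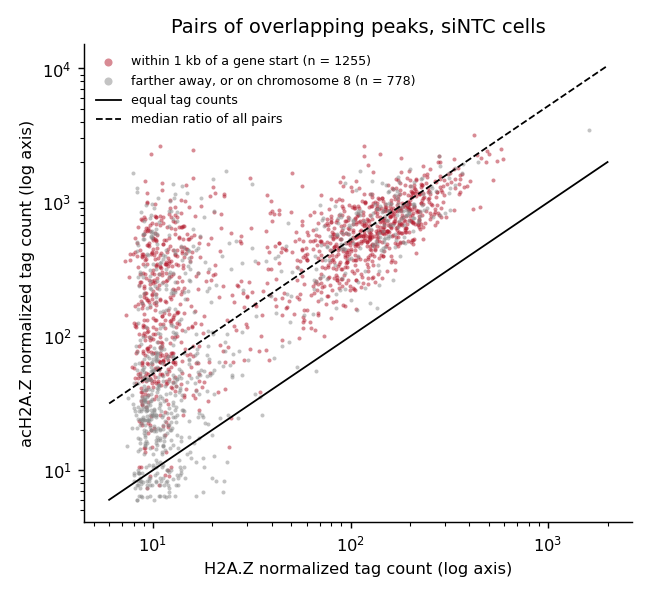
Normalized tag count of acH2A.Z (y axis, log) against H2A.Z (x axis, log) for the 2033 pairs that join 1 peak of each list, with red points within 1 kb of a gene start and grey points elsewhere or on chromosome 8. The solid line marks equal counts and the dashed line the median of 5.24-fold over all 2129 pairs, including those that share an acH2A.Z peak. A vertical band near 11 H2A.Z tags stands apart from a sloping cloud with a median of 126.2 H2A.Z tags.

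Among 773 pairs at gene starts with at least 20 tags in both marks, the highest ratios belonged to promoters with abundant acH2A.Z and little H2A.Z. TWF1, an actin-binding twinfilin, had 1310.4 acH2A.Z and 20.2 H2A.Z tags (log2 6.02), and TYMS, the thymidylate synthase of DNA synthesis, had 1175.9 and 20.7 (log2 5.83). AP5S1 followed at 5.66, the amino acid transporter gene SLC38A1 at 5.61, LRRC37A3 at 5.60 and SLC38A2, a transporter of the same family, at 5.37. POLI, a translesion DNA polymerase, stood at 5.21, the histone chaperone ASF1A at 5.03, ATXN1 at 4.92 and the poly(A) polymerase PAPOLA at 4.86. All 10 had H2A.Z counts of 20.2 to 50.4 tags, where 20 was the floor set for naming. TWF1, SLC38A1 and SLC38A2 lay between 43 and 48 Mb of chromosome 12, and TYMS and POLI on chromosome 18. In both places H2A.Z peaks without acH2A.Z were numerous, as given below. The part of the location in these ratios was not tested.

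The lowest ratios belonged to promoters where the marks were of similar strength. ARL6, a small GTPase of the cilium, had 24.5 acH2A.Z and 24.9 H2A.Z tags (log2 -0.02), and THG1L, a tRNA-modifying enzyme, had 38.5 and 34.7 (log2 0.15). The Notch ligand JAG2 had 100.8 and 73.7 tags (log2 0.45), and the kinase TESK1 158.9 and 106.4 (log2 0.58). XYLT1 and MXRA7 stood at 0.76, CFAP36 at 0.77, NBAS at 0.81, the forkhead factor FOXA1 at 0.82 and PPP1R12C at 0.84. Their acH2A.Z counts ran from 24.5 to 168.2 tags, and those of the 10 highest ratios from 643.9 to 1645.4 tags. The acH2A.Z count is part of the ratio, so the ranking itself sets these ranges apart.

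The strongest H2A.Z peak of the list lay at the start of MYC, the amplified oncogene of this line, with 3449.1 acH2A.Z and 1619.6 H2A.Z tags, a log2 ratio of 1.09. Its neighbour PVT1, a long non-coding RNA gene, had an acH2A.Z peak of 751 tags and no listed H2A.Z peak. After MYC came promoters between 400 and 600 H2A.Z tags. These included the de novo DNA methyltransferase DNMT3A with 1477.2 acH2A.Z and 527.5 H2A.Z tags, SOCS6, of the cytokine signalling suppressor family, with 2040.4 and 549.4, and PPP4R1, a phosphatase subunit, with 2294.2 and 501.3. MIR17HG, the host of the miR-17-92 cluster, had 2434.2 and 492.4 tags. Of the 17 H2A.Z peaks with at least 400 tags, 8 were on chromosome 18, and all 17 overlapped acH2A.Z.

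Among acH2A.Z peaks without H2A.Z at a gene start, the strongest, beside the ATP9B and FOXO3 peaks shown above, were at LINC02939 with 2617.3 tags, BICRAL with 2536.2, SGK1 with 2237.1, VAPA, a membrane contact protein of the endoplasmic reticulum, with 2125.4, DIPK2A with 2045.9 and KCTD12 with 1991. The strongest acH2A.Z peak of all, 3309 bp wide with 5454.3 tags, lay on chromosome 8, whose starts were not used here, and also had no H2A.Z partner. LINC00938 had the most acH2A.Z tags at a start among genes with acH2A.Z alone, 3725.1. That peak was 5814 bp wide and met an H2A.Z peak of 28.1 tags more than 1000 bp from the start, so a gene and its peak can fall in different classes. The widest acH2A.Z peak, 9105 bp at LINC01962 and TRIM7-AS2, had no H2A.Z partner. The next, 8881 bp at the haematopoietic repressor BCL11A, had 2227.3 acH2A.Z and 116.4 H2A.Z tags.

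H2A.Z peaks without acH2A.Z differed from those with it in tags, fold, width and place. Their median tag count was 10.2, against 19.9 for H2A.Z peaks that overlapped acH2A.Z, and 88.2% against 48.0% were at the narrowest width of 500 bp. Their median fold over control was the higher, 7.33 against 4.77, over a median of 1.8 control tags against 4.8. Only 96 of 4369 (2.20%, 1.78 to 2.68) reached within 1000 bp of a gene start, whereas 65.0% of the overlapping H2A.Z peaks, 68.1% of the overlapping acH2A.Z peaks and 50.9% of the acH2A.Z peaks alone did. The peak centre was a median of 53633 bp from the nearest start, and 84.4% were more than 10000 bp away. For acH2A.Z the median distance was 303 bp where it overlapped H2A.Z and 1247 bp where it did not, and for overlapping H2A.Z peaks it was 564 bp. Chromosome 8 is not in these figures, since its starts were not used here.

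**Figure D3:**
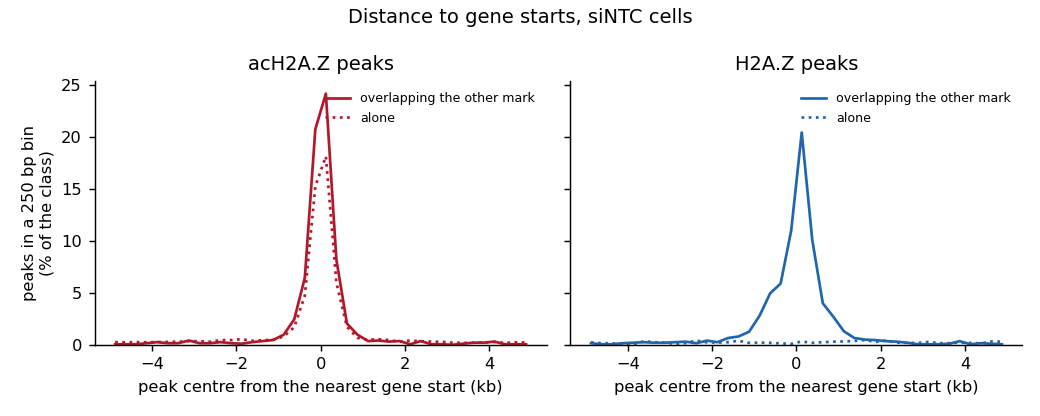
Share of each class of peaks (y axis, percent of the class in a 250 bp bin) by distance of the peak centre from the nearest gene start (x axis, kb), for acH2A.Z (left) and H2A.Z (right), with solid lines for peaks overlapping the other mark and dotted lines for peaks alone. Overlapping peaks and acH2A.Z peaks alone centre on the start, and the line for H2A.Z alone is flat, with 2.20% of its peaks reaching a start.

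The overlap differed between chromosomes. The share of acH2A.Z peaks that met H2A.Z ran from 6.57% on chromosome 19 to 22.03% on chromosome 18. The share of H2A.Z peaks that met acH2A.Z ran the other way, from 74.2% on chromosome 16 (49 of 66) to 9.61% on chromosome 18 (95 of 989). Chromosome 18 held 2.39% of the acH2A.Z peaks but 14.4% of the H2A.Z peaks, and 894 of its H2A.Z peaks stood alone, or 11.1 per Mb against a median of 1.23 over chromosomes. Without it, 34.5% (33.3 to 35.7) of H2A.Z peaks overlapped acH2A.Z. Median log2 ratios at shared peaks stayed between 1.88 on chromosome 20 and 2.58 on chromosome 5, with 2.40 on chromosome 18.

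Lone H2A.Z peaks tended to be more numerous on chromosomes with more input DNA, with exceptions. In the input DNA libraries of DMSO, DRB and ActD cells, counts per length of gene on chromosome 18 were 2.01, 2.02 and 1.95 times those of the median chromosome. Over the 22 chromosomes, the mean input level and lone H2A.Z peaks per Mb had a Spearman correlation of 0.627, against 0.107 for H2A.Z peaks overlapping acH2A.Z and -0.13 for acH2A.Z peaks. Chromosome 13 (input 1.27) held 338 lone peaks, or 2.96 per Mb, and chromosome 10 (input 0.637) held 38, or 0.284 per Mb. Chromosomes 15 and 17 held 0.794 and 0.733 per Mb, although their input levels were 1.21 and 1.11. Chromosomes 6, 8 and 12 held 2.75, 2.70 and 2.16 per Mb at input levels of 0.985, 0.979 and 1.02. On chromosomes 6 and 12 many of them lay close together: the fullest 1 Mb stretch of the genome, at 133 to 134 Mb of chromosome 6, held 64, and the 5 stretches from 43 to 48 Mb of chromosome 12 held 26, 46, 42, 45 and 24. Of 147 stretches with more than 5 lone peaks, 68 were on chromosome 18. The part of the DNA amount in these peak numbers was not tested, and the input came from other cells than the siNTC ChIP.

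**Figure D4:**
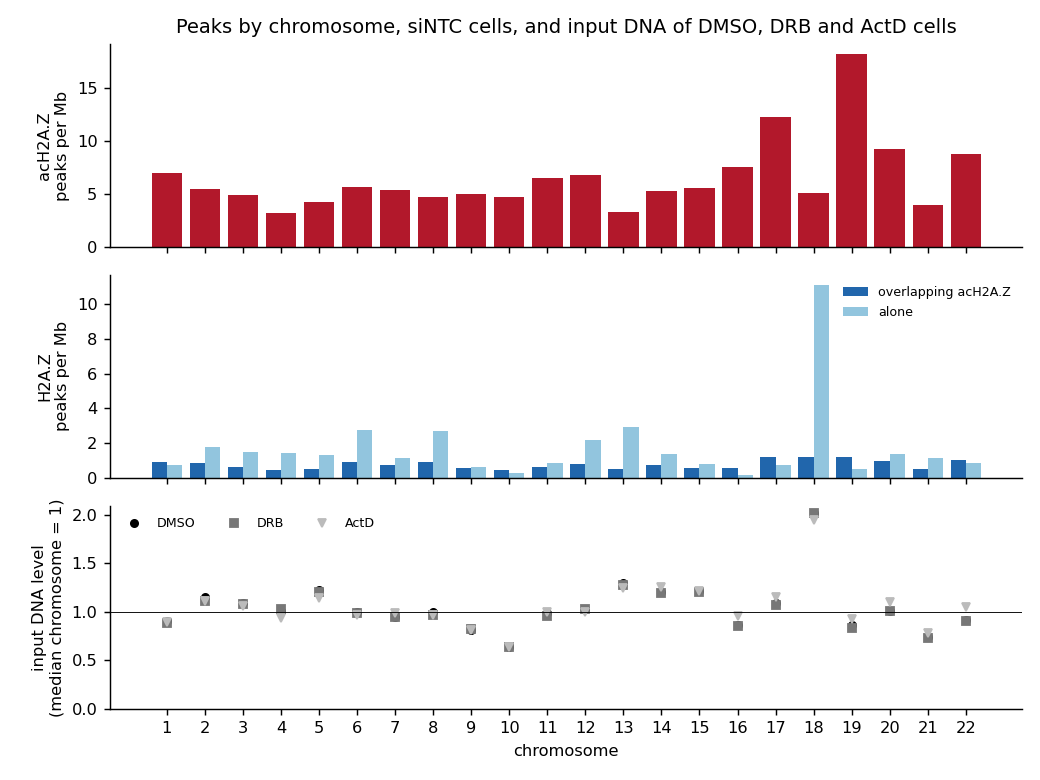
Peaks per Mb of chromosome in siNTC cells for acH2A.Z (top) and for H2A.Z (middle, dark bars overlapping acH2A.Z and light bars alone), and input DNA level relative to the median chromosome (bottom, 1 point for each of the DMSO, DRB and ActD libraries). Chromosome 18 stands out with 11.1 lone H2A.Z peaks per Mb and an input level near 2.

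Gene starts were nearly always acetylated where H2A.Z was listed. Of 26246 genes with a start, 1695 (6.46%) had both marks within 1000 bp, 9212 (35.1%) had acH2A.Z alone, 63 (0.24%) had H2A.Z alone and 15276 (58.2%) had neither. Any acH2A.Z peak was near the start of 41.6% of genes and any H2A.Z peak near 6.7%. In 1615 of the 1695 genes (95.3%) the strongest peaks of the marks overlapped. Protein-coding genes carried the marks more often than lncRNA genes: 1377 of 15101 (9.12%) against 318 of 11145 (2.85%) had both, and 47.9% against 17.7% had acH2A.Z alone. H2A.Z alone was found at 34 protein-coding genes (0.225%), and 42.7% of protein-coding genes had neither.

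Nascent RNA separated genes with acH2A.Z from genes without it, and H2A.Z beside it went with no higher level. Nascent RNA is RNA captured soon after it is made, given as TPM, a level scaled to transcript length and library size, and it was measured in untreated cells, where fewer cells expressing a gene and less RNA per cell cannot be told apart. The median over protein-coding genes was 1.19 TPM with both marks (quartiles 0.475 and 2.80), 1.37 with acH2A.Z alone (0.49 and 3.24), 0.06 with H2A.Z alone and 0.01 with neither. At least 1 TPM was reached by 55.7% (53.0 to 58.4), 59.6% (58.4 to 60.7), 26.5% (12.9 to 44.4) and 5.32% (4.77 to 5.91) of these classes. Genes with both marks were also split at 30 H2A.Z tags, the line chosen after seeing the data. The median was 1.095 TPM (0.96 to 1.24) for 754 genes with at least 30 tags. It was 1.37 (1.19 to 1.51) for 597 genes with fewer, and these intervals overlap. The groups also differed in acH2A.Z, with medians of 645.3 and 174.2 tags, and the part of each mark was not tested. Within quartile groups of acH2A.Z tags, genes with both marks had medians of 1.28, 1.18, 1.14 and 1.24 TPM, low to high, and genes with acH2A.Z alone 1.23, 1.31, 1.495 and 1.47 TPM. In total RNA the medians were 2.04 TPM with both marks and 2.23 with acH2A.Z alone.

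From the side of RNA, acH2A.Z at the start was found in 5.46% of protein-coding genes at 0 TPM, and in 10.8%, 44.0%, 89.1%, 93.8% and 93.8% of the quintiles of genes above 0, low to high. H2A.Z was found in 0.795%, 1.52%, 7.58%, 16.8%, 15.2% and 13.6% of the same groups. Both marks were thus rare at silent genes, and among genes with acH2A.Z the share with H2A.Z as well was 10.9% at 0 TPM, 18.7% in the third quintile and 14.3% in the highest.

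**Figure D5:**
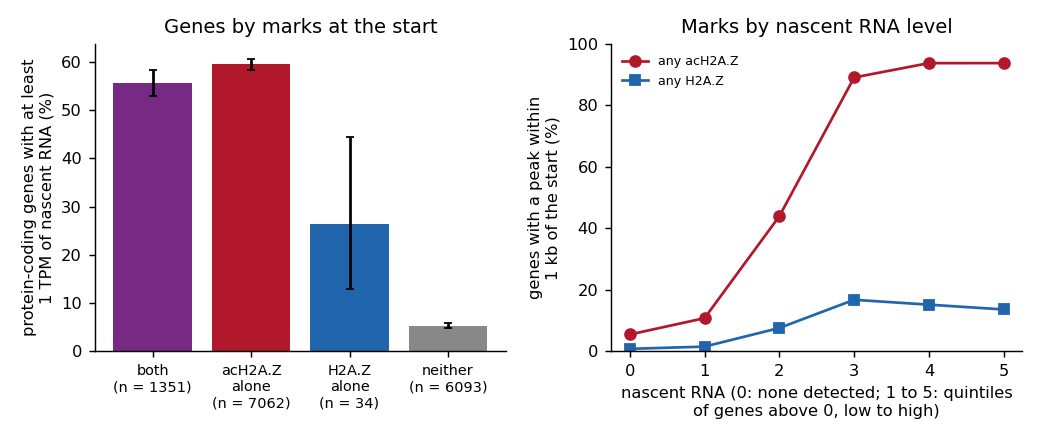
Left, share of protein-coding genes with at least 1 TPM of nascent RNA in untreated cells (y axis, percent) by the marks at the start in siNTC cells, with exact binomial 95% intervals. Right, share of protein-coding genes with any acH2A.Z or any H2A.Z peak within 1 kb of the start (y axis, percent) by nascent RNA level (x axis); the acH2A.Z share reaches 93.8% in the highest quintile and the H2A.Z share 13.6%.

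The letters at the starts followed the same classes. Over the 250 bases before and 50 after each start, the median number of CG was 31 with both marks (2116 starts), 27 with acH2A.Z alone (11565), 6.5 with H2A.Z alone (78) and 5 with neither (19799), and 14 over all 33558 starts. The observed over expected CG ratio exceeded 0.6, a usual mark of CpG islands, in 89.3%, 84.9%, 41.0% and 23.5% of these classes. The GC box GGGCGG, on either strand, was present in 76.8% of starts with both marks, 70.6% with acH2A.Z alone, 34.6% with H2A.Z alone and 26.6% with neither, against 45.0% of all starts. The ETS letters CCGGAA were less frequent with both marks, 25.9%, than with acH2A.Z alone, 31.6%, and stood at 17.3% of all starts. TATAAA was present in 4.40% of starts with both marks, 4.66% with acH2A.Z alone and 11.6% of all. The E-box letters CACGTG, to which MYC and MAX are known to bind, were present in 9.40%, 10.4% and 7.15%, CCAAT in 29.9%, 34.0% and 34.4%, and the AP-1 letters TGACTCA in 2.03%, 2.86% and 4.93% of the same groups. All letters were searched on both strands, no motif contains another, and a match is a description of the letters and not of a bound site.

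Among genes of the H2A.Z machinery, 3 of 20 with a start had both marks and 16 had acH2A.Z alone (80%, beside 47.9% of protein-coding genes). RUVBL2 had neither (5%, beside 42.7%). H2AZ1, which encodes the main H2A.Z protein, had 193.9 acH2A.Z and 9.23 H2A.Z tags, and H2AZ2, which encodes the other, had 538.8 acH2A.Z tags and no H2A.Z peak. The remodeller gene INO80 had 1015.9 and 84.3 tags. BRD8, a TIP60 complex subunit, shared a peak with the mitotic kinesin gene KIF20A, with 23.1 acH2A.Z and 8.47 H2A.Z tags. SRCAP with 479.4, EP400 with 286.4 and KAT5, the gene of Tip60, with 214.6 acH2A.Z tags had no H2A.Z peak at the start. The share with both marks, 3 of 20, stood beside 9.12% over protein-coding genes.

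In the MYC network, 2 of 11 genes had both marks (18.2%, beside 9.12% of protein-coding genes), and 7 had acH2A.Z alone (63.6%, beside 47.9%). With both marks were MXD4 and MXI1, which encode MAX partners that oppose MYC: MXD4 with 733.5 acH2A.Z and 198.2 H2A.Z tags, and MXI1 with 517.4 and 52.6. MXD1 (217.6 acH2A.Z tags) and MNT (304.9), which encode other such partners, had acH2A.Z alone, as had MAX (136.5) and MGA (608.9), and MXD3 had neither mark. MYC itself, with no start in the table used, is not among the 11.

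Of 35 S-phase genes with a start, 5 had both marks (14.3%, beside 9.12% of protein-coding genes), 29 had acH2A.Z alone (82.9%, beside 47.9%) and the thymidine kinase gene TK1 had neither. E2F1, the cell cycle transcription factor, had 484.9 acH2A.Z and 208.3 H2A.Z tags (log2 1.22), POLE, the leading strand polymerase, 553.6 and 128.1 (2.11), and the cyclin gene CCNE1 516.1 and 120.6 (2.10). PRIM1, a primase subunit, had 120.1 and 9.02 tags (3.73). Among the rest, SLBP had 1121 acH2A.Z tags and RRM2 714.3, without H2A.Z. In the G2/M list, 2 of 24 had both marks (8.33%, near the 9.12% of protein-coding genes) and 18 had acH2A.Z alone (75%, beside 47.9%). NUSAP1, of the mitotic spindle, had 322.4 and 11 tags, and CCNB1, PLK1, CENPA and NEK2 had neither mark, at 8.60, 6.32, 2.60 and 0.96 TPM of nascent RNA.

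Genes of the myeloid programme had acH2A.Z alone or neither mark, and none of those with a start had both, beside 9.12% of protein-coding genes. Lists of 15 and 11 genes are too short to set 0 apart from that share. Of 15 myeloid transcription factors and receptors, 10 had acH2A.Z alone (66.7%, beside 47.9% of protein-coding genes), 5 neither (33.3%, beside 42.7%) and 0 both. MYB had 1600 acH2A.Z tags, CEBPB 1409.2, RUNX1 1241.9 and CEBPA, the granulocytic master factor, 372.9, and FLT3 had 925.6 tags at 0.08 TPM of nascent RNA. Of 11 granule genes, 3 had acH2A.Z alone (27.3%, beside 47.9%) and 8 neither (72.7%, beside 42.7%). SERPINB1 had 453.2 acH2A.Z tags, CFD 156.9 and the cathepsin gene CTSG 17.8. The proteinase 3 gene PRTN3 had neither mark at 46.4 TPM and AZU1 neither at 6.88. MPO and ELANE, without a start in the table used, had no peak at either end of the gene, although 1 acH2A.Z peak lay elsewhere over MPO. SPI1 had an acH2A.Z peak of 7.13 tags at an end of the gene. In total RNA the promyelocyte markers were present, with MPO at 49.9, PRTN3 at 61.9 and CTSG at 26.4 TPM, although ELANE was listed at 0. The 14 defining markers of lymphoid, erythroid and epithelial or fibroblast cells, such as CD3E, HBB and EPCAM, were listed at 0 in total RNA and reached at most 0.09 TPM, for CD79A, in nascent RNA. Over the full lists for these lineages, 11 of 55 genes were above 0 in total RNA and 3 reached 1 TPM: CD4 (4.70), which monocytic cells also express, NKG7 (1.87) and TFR2 (1.64). The summed total RNA was 6.90 TPM for the lymphoid, 2.01 for the erythroid and 0.42 for the epithelial and fibroblast list.

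Immediate early genes, which respond quickly to signals, mostly carried acH2A.Z at low and at higher RNA levels. Of 24, 19 had acH2A.Z alone (79.2%, beside 47.9% of protein-coding genes), 4 neither (16.7%, beside 42.7%) and SGK1 both. FOSL2 had 1621 acH2A.Z tags, JUND 1164.7, JUN 563.2, EGR1 552.8 and FOS 450.6, at nascent RNA levels of 2.14, 3.95, 0.42, 0.14 and 0.69 TPM. At SGK1 the strongest acH2A.Z peak (2237.1 tags) and the H2A.Z peak (57.4 tags) lay at different starts of the gene and did not overlap. Among 16 apoptosis regulators, 2 had both marks (12.5%, beside 9.12%): BCL2, the antiapoptotic founder of its family on chromosome 18, with 1204.8 acH2A.Z and 298.1 H2A.Z tags, and BID with 381.7 and 59.7. BCL2L11, which encodes BIM, had 874.1 acH2A.Z tags alone.

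Cytosolic ribosomal protein genes had high RNA at an acH2A.Z level below the class medians of all genes, which were 468.8 tags with both marks and 245.1 with acH2A.Z alone. Of 60 cytosolic ribosomal protein genes, 8 had both marks (13.3%, beside 9.12% of protein-coding genes), 46 acH2A.Z alone (76.7%, beside 47.9%) and 6 neither, with a median of 126.8 acH2A.Z tags among those with a peak and of 82.6 TPM of nascent RNA. RPS29 had 603.1 acH2A.Z and 53.1 H2A.Z tags, RPS12 147.2 and 51.5, and RPS3A 179.8 and 9.52, while RPL38 had neither at 286.5 TPM. Of 70 mitochondrial ribosomal protein genes, 9 had both marks (12.9%) and 59 acH2A.Z alone (84.3%), and MRPS6 was the strongest with both, with 649 and 231.5 tags. The medians of the mitochondrial list were 150.15 acH2A.Z tags among those with a peak and only 2.12 TPM of nascent RNA. Of 14 housekeeping genes, 2 had both marks (14.3%), POLR2A, the large subunit of RNA polymerase II, with 95.8 and 9.97 tags and RPLP0 with 47.7 and 12, and 12 had acH2A.Z alone, such as GAPDH with 102 tags at 151.6 TPM. Of 19 snoRNA host genes, SNHG8 had both marks (84.6 and 9.61 tags) and 15 had acH2A.Z alone, beside 2.85% and 17.7% of lncRNA genes. Ribosomal protein genes have near-identical pseudogenes, so the reads behind their RNA values are uncertain.

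Replication-dependent histone genes had the lowest median acH2A.Z of the 19 gene lists. Of 66 with a start, 5 had both marks (7.58%, near the 9.12% of protein-coding genes), 25 acH2A.Z alone (37.9%), 35 neither (53.0%), and H2BC5 had H2A.Z alone with 12.4 tags. The median among those with acH2A.Z was 16.9 tags. H2AC6 and H2BC4 shared a peak pair of 10.5 acH2A.Z and 8.52 H2A.Z tags (log2 0.30), and H4C8 had 46.1 and 8.80 tags. Of 418 zinc finger genes named ZNF, 35 (8.37%) had both marks, 251 (60.05%) acH2A.Z alone, 1 H2A.Z alone and 131 (31.3%) neither, beside 9.12%, 47.9% and 42.7% of protein-coding genes with both, acH2A.Z alone and neither. In those with both, the log2 ratios ran from 0.80 to 6.00.

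The long non-coding RNA genes listed by name were few but often carried both: 4 of 11, against 2.85% over lncRNA genes. Their list holds only lncRNAs long studied for their abundance or function. MIR17HG is given above, CRNDE had 944 acH2A.Z and 66.5 H2A.Z tags, and TUG1 501.6 and 70.8. MALAT1 had an acH2A.Z peak of 124 and an H2A.Z peak of 10.6 tags that did not overlap. DLEU2 (1796.4 acH2A.Z tags), NORAD (411) and OIP5-AS1 (288.2) had acH2A.Z alone.

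Of 42 developmental regulators, 2 had both marks (4.76%, beside 9.12% of protein-coding genes), 13 acH2A.Z alone (31.0%, beside 47.9%) and 27 neither (64.3%, beside 42.7%). HOXA13 had 332.9 acH2A.Z and 86.7 H2A.Z tags and FOXA1 96.2 and 54.6, each at 0.05 TPM of nascent RNA. GATA6, on chromosome 18, had 1362.8 acH2A.Z tags alone at 0.09 TPM, and NEUROG2 594.9 at 0.03 TPM. Of 13 lymphoid marker genes, 3 had acH2A.Z alone (PAX5 with 381.2 tags, RAG1 with 368.5 and CD8A with 81.2) and 10 neither. Of 5 erythroid and 7 epithelial or fibroblast marker genes, 1 and 2 had acH2A.Z alone and none had H2A.Z. These lists were chosen with earlier results of these data known, and their counts are descriptions.

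Vehicle cells, given DMSO, offer a separate pair of lists from the same line, with 16489 acH2A.Z peaks and 1254 H2A.Z peaks. Between siNTC and DMSO cells the acH2A.Z lists were alike in length, and the H2A.Z lists were not. The acH2A.Z share overlapping H2A.Z was 12.3% in siNTC and 6.63% in DMSO cells, and the H2A.Z share overlapping acH2A.Z was 30.9% in siNTC and 89.4% in DMSO cells. The median log2 ratio at pairs was 2.39 in siNTC and 5.31 in DMSO cells. The implied number of tags behind the H2A.Z lists was 12.6 M for the siNTC library and 3.52 M for the control to which the DMSO library was scaled, and the part of depth and control in these gaps was not tested.

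Few of the same promoters carried H2A.Z in both pairs of lists. Of the 1695 genes with both marks in siNTC cells, 187 (11.03%) also had both in DMSO cells and 1317 (77.7%) had acH2A.Z alone there. Of the 9212 genes with acH2A.Z alone in siNTC cells, 1038 (11.3%) had both in DMSO cells. Of the 15276 genes with neither mark in siNTC cells, 22 (0.144%) had both in DMSO cells. Over all genes, 189 of 1758 with H2A.Z in siNTC cells (10.8%) and 1060 of 24488 without it (4.33%) had H2A.Z in DMSO cells, so the shares were close only against genes with acH2A.Z alone. The protein-coding genes with both marks had a median of 1.19 TPM of nascent RNA in the siNTC classes and 2.49 TPM in the DMSO classes, where acH2A.Z alone stood at 1.37 and 1.38 TPM.

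Recurrence in the DMSO and siMyc lists of the line was lowest for lone H2A.Z peaks, but this did not hold for every other list. Peaks of the DMSO acH2A.Z list covered 84.7% of the siNTC acH2A.Z peaks that overlapped H2A.Z, 69.3% of the acH2A.Z peaks alone, 81.0% of the overlapping H2A.Z peaks and 3.63% of the lone H2A.Z peaks. The siMyc acH2A.Z list covered 67.6%, 45.9%, 54.2% and 5.02% of the same classes. The DMSO H2A.Z list, far shorter, covered 4.74% of the overlapping H2A.Z peaks and 0.105% (5 of 4761) of the lone ones. The siMyc H2A.Z list covered 57.2% of the overlapping and 5.67% of the lone H2A.Z peaks, and without chromosome 18 the share of lone peaks was 5.33%. The DRB acH2A.Z list covered 95.0% and 6.60% of the overlapping and lone H2A.Z peaks, and the ActD acH2A.Z list 73.2% and 6.76%. The DRB H2A.Z list covered 17.1% and 0.84%, but the ActD H2A.Z list 4.13% and 3.84%. Peaks of RNA precipitated with acH2A.Z covered 23.4% and 15.2%, with H2A.Z 5.35% and 5.99%, and with Tip60 17.8% and 17.4%. The 987 strong and 1142 weak shared H2A.Z peaks also differed: the siMyc acH2A.Z list covered 23.2% of the strong and 80.9% of the weak, and the siMyc H2A.Z list 68.2% of the strong and 47.6% of the weak.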

How the data were processed

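ChIP peak lists of 1 acH2A.Z and 1 H2A.Z library of siNTC cells were analysed. Per the submitters' processing notes, the build was GRCh38 and the tools included Trim Galore, cutadapt, FastQC, STAR 2.5.2b and HOMER. Per the file headers, the deposited lists come from HOMER's peak finder, run by the authors on each library. The authors' normalized tag count is a signal per peak whose scale the headers leave unstated. Beside it stand a find-peaks score, the tags in sample and control, their fold, and a p-value. The deposited score and fold ranked or limited peaks within a list, and the deposited p-value was checked only for its limit. Deposited gene tables of untreated nascent RNA (25167597 expected counts) and total RNA (12679342) gave TPM, with the authors' FPKM as an alternative, and 3 input DNA tables gave the deposited expected counts per length. The sources used here do not name the quantifier.

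Overlap (at least 1 bp), tag ratios and peaks within 1000 bp of a RefSeq GRCh38.p14 start were computed with Python 3.11.15, pandas 2.3.3, numpy 2.4.6 and scipy 1.17.1, checked on simulated peaks. The start table held 33725 starts of 26246 genes, none on chromosome 8, and 18158 genes matched an RNA row by symbol. A gene took its strongest peaks near any start. Ratios of the tag column to the normalized column imply 12.6 M H2A.Z tags, and at least 18.7 M acH2A.Z tags, scaled to the control. Tag values were not whole, so they have no counting interval. Exact 95% binomial intervals of shares treat peaks as independent and cover counting only, and the RNA intervals are order-statistic intervals over genes. With 1 library a side no test was possible. Named genes were the 10 highest and 10 lowest ratios at starts, the strongest peaks and genes of each class, the highest and lowest members of 19 gene lists and 13 fixed genes, and further members were named after their values were seen. The members and lists were chosen with earlier results of these data known.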

Additional observations from a re-analysis of the deposited data

How the results depend on the processing

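Requiring an overlap of 50% of the shorter peak gave 11.8% of acH2A.Z and 29.4% of H2A.Z peaks shared. A fold over control of at least 8 gave 2.35% and 7.16%, a chromosome range of the acH2A.Z share of 3.97 percentage points against 15.5, and 118 genes with both marks and 5946 with acH2A.Z alone. Reducing the acH2A.Z list to the length of the H2A.Z list by score gave 15.1% and 15.4%. Alternatives chosen after seeing the data gave 19.2% and 19.7% for reduction by tag count, 7.82% and 65.1% for peaks wider than 500 bp, and 34.5% of H2A.Z peaks without chromosome 18. The median log2 ratio was 0.94 per kb of peak and 2.20 for peaks wider than 500 bp. Peaks covering the start gave 887 genes with both marks and 19 with H2A.Z alone, and peaks wider than 500 bp gave 946 and 15. For H2A.Z alone, a 5000 bp window gave 235 genes and protein-coding genes 34. The causes were not tested, except that the last 2 alternatives change the genes counted by their construction. Of the 29 planned settings, 15 stayed within the interval of the value or within 1.5 times the count. Of the 11 chosen after seeing the data, 3 did. In none did the median ratio turn below 0. The log2 difference in median nascent RNA between genes with both marks and with acH2A.Z alone stayed from -0.20 to -0.12. Its interval reached or crossed 0 in each setting, and was -0.38 to 0.01 in the main one. No paired analysis was possible because the labels give no replicate numbers and each list is 1 library. Of the shared H2A.Z peaks, 56.2% had a fold of 4 to 5, next to the limit of the list, and the part of depth was not tested.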
